A study of Mus musculus with 12 samples.

Results

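The genes described here encode the subunits of the oxidative phosphorylation system of mitochondria, read in preosteoclasts of mice with and without LSD1 (gene Kdm1a, a histone demethylase). A gene was taken as a member where its symbol began with Ndufa, Ndufb, Ndufc, Ndufs or Ndufv and a number, with Sdha to Sdhd, with Uqcr, with Cox4 to Cox8 or with Atp5, where the symbol was not that of a pseudogene, and where it had a mean of at least 10 reads over the 12 libraries. Of 57010 rows in the count table, 109 had such a symbol, 14 of them were pseudogene symbols and 8 lay under the minimum, which left 87 members. They comprised 38 genes of complex I, 8 of complex II (4 subunits and the 4 assembly factors Sdhaf1 to Sdhaf4, which share the start of the symbol), 8 of complex III, 16 of complex IV and 17 of complex V. All 87 passed the filter on low counts that left 15425 genes for testing. Just inside the minimum were Cox6c2 with a mean of 11.8 reads, Ndufb4c with 12.8, Cox6a2 with 13 and Cox6b2 with 15.8, and just outside it were Cox4i2 with 1.33 and Ndufa11b with 0.167, while Cox8b, Cox8c, Cox7b2, Ndufa4l2, Ndufb11b and another row of Atp5o had no reads in any library.

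Female mice, labelled as 2 months old, were LSD1WT or LSD1cKO, the latter lacking LSD1 in myeloid cells through LysM-Cre (Cre under the lysozyme M promoter, active across the myeloid lineage and not in osteoclasts alone). Marrow cells were cultured for 2 days with M-CSF and RANKL, the cytokines from which osteoclasts form, so all libraries share this treatment. There were 3 cultures: mandible and femur marrow of mice with a ligature around a molar for 7 days (ligature-induced periodontitis), and femur marrow of mice without one, each with 2 libraries of each genotype. The 12 libraries came from 9 mice, since 1 LSD1WT mouse and 2 LSD1cKO mice gave both a mandibular and a ligated femoral library, and there was no unligated mandibular culture. One LSD1WT library, called mandible replicate 3 after its title, carries a library name that reads femur. In each sentence of values below the first replicate of a group stands before the second.

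Oxidative phosphorylation passes electrons from NADH (complex I) and succinate (complex II) through coenzyme Q to complex III, from there through cytochrome c to complex IV and oxygen, and uses the proton gradient so built to make ATP at complex V, the ATP synthase. Nearly all subunits are encoded in the nucleus, and a small set in mitochondrial DNA, so that each of complexes I, III, IV and V is built from both genomes, while complex II is wholly nuclear. Osteoclasts are rich in mitochondria, and mitochondrial biogenesis, driven in part by the coactivator PGC-1β (Ppargc1b), accompanies their differentiation.

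Depth ran from 21375805 to 32526751 assigned reads per library, at which 3 reads correspond to 0.0927 to 0.154 CPM (read counts scaled to a common library size, after TMM scaling). Kdm1a was at 71.0 and 71.3, 66.8 and 70.1 and 61.2 and 68.4 CPM in the LSD1WT libraries of the mandible, the ligated and the unligated femur, and at 24.3 and 22.1, 15.6 and 17.8 and 20.3 and 16.9 CPM in LSD1cKO. The summed level of 10 osteoclast markers, which checks the label of the cells, was 11544 to 40906 CPM in 10 libraries but 168 and 238 CPM in the second LSD1WT replicate of the ligated and of the unligated femur. These 2 libraries held 44446 and 21418 CPM of 8 macrophage markers, against 2823 to 10318 CPM in the others. Markers of neutrophils, B cells, erythroid and stromal cells summed to 89.1 to 304, 8.99 to 223, 0 to 0.433 and 0.517 to 40.8 CPM, and the B cell sum was 223 and 113 CPM in the same 2 libraries against 8.99 to 47.5 CPM in the other 10. In bulk samples, fewer cells of a type and less RNA per cell cannot be told apart.

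The 87 members together took 0.735% to 2.22% of all reads. Their sum was 21095 and 20929.8 CPM in the LSD1WT mandibular cultures against 16854 and 15862 CPM in LSD1cKO. In the ligated femur it was 21562 and 8062 CPM in LSD1WT against 15021 and 17387 CPM in LSD1cKO, and in the unligated femur 22617 and 8120.0 against 15104 and 15145 CPM. The genotypes did not overlap in the mandible, whereas in both femoral cultures 1 LSD1WT library lay above and 1 below both LSD1cKO libraries, and the 2 low ones were those with almost no osteoclast markers. Against its mean log2 CPM over the 12 libraries, the median member stood at 0.43 and 0.38 (LSD1WT) and 0.14 and 0.01 (LSD1cKO) in the mandible, at 0.35 and -0.92 and then -0.07 and 0.23 in the ligated femur, and at 0.52 and -0.95 and then -0.26 and 0.12 in the unligated femur, while the median of all genes tested lay between -0.01 and 0.04 in every library.

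**Figure D1:**
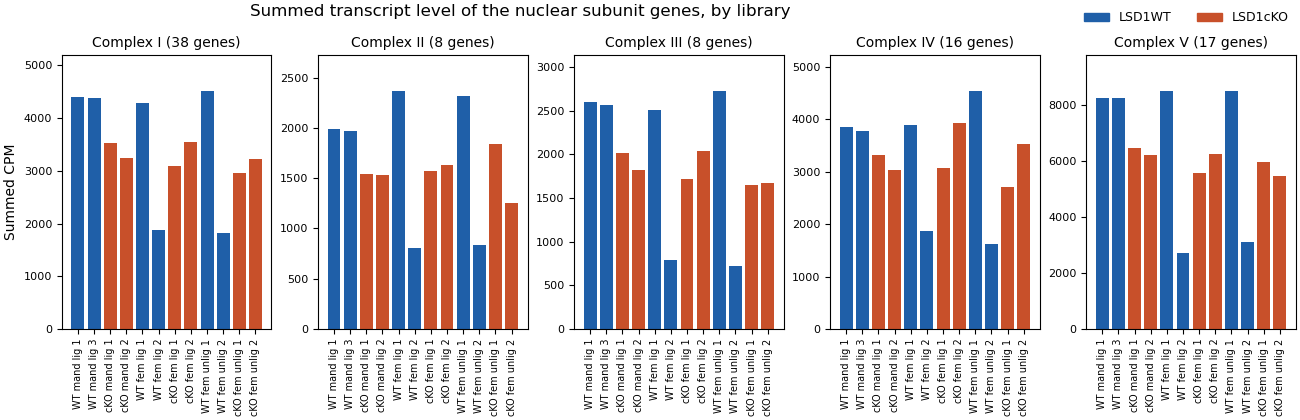
Summed CPM of the member genes of each respiratory complex (vertical axis, linear from 0) in the 12 libraries, grouped by culture and genotype, with 1 bar for each library. In every complex the LSD1WT mandibular libraries lie above the LSD1cKO ones, and in both femoral cultures the second LSD1WT replicate is lowest, as with complex V at 2725 and 3126 CPM.

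All 5 complexes had this order, except that in the ligated femur complex IV was at 3885 and 1875 CPM in LSD1WT and 3070.0 and 3922 CPM in LSD1cKO, so that the highest library was LSD1cKO. Complex I summed to 4396 and 4374 CPM (LSD1WT) and 3537 and 3250.4 CPM (LSD1cKO) in the mandible, to 4282 and 1876 against 3098 and 3549 CPM in the ligated femur and to 4523 and 1819 against 2967 and 3234 CPM in the unligated femur. Complex II, succinate dehydrogenase, summed to 1988 and 1969 CPM (LSD1WT) against 1538 and 1535 CPM (LSD1cKO) in the mandible, 2371 and 801 against 1572 and 1635 CPM in the ligated femur and 2314 and 833 against 1835 and 1256 CPM in the unligated femur. Complex III, the cytochrome bc1 complex, had the widest span of the 5, from 723 CPM in the second LSD1WT replicate of the unligated femur to 2728 CPM in the first, a ratio of 3.77, against 2.49 for complex I, the narrowest. Complex IV, cytochrome c oxidase, ran from 1619 to 4547 CPM between the same pair of libraries, and complex V from 2725 to 8519 CPM between the 2 LSD1WT libraries of the ligated femur. The makeup of the sum moved less than its size: complex V took 33.8% to 39.5% of it, complex I 19.6% to 23.3%, complex IV 17.9% to 23.4%, complex III 8.91% to 12.3% and complex II 8.29% to 12.2%.

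Gene by gene, the 2 LSD1WT femoral libraries with almost no osteoclast markers were the lowest pair of the 12 for 72 of 87 members (82.8%), which was so for 18% of all genes tested. This held for 30 of 38 members of complex I, 5 of 8 of complex II, 8 of 8 of complex III, 12 of 16 of complex IV and 17 of 17 of complex V. At the other end, the remaining 4 LSD1WT libraries lay above all 8 others for 42 members (48.3%), against 5.91% of all genes. They were 17 members of complex I, 4 of complex II, 5 of complex III, 6 of complex IV and 10 of complex V. LSD1cKO libraries were thus in the middle of the order for many members, above one kind of LSD1WT library and below the other.

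**Figure D2:**
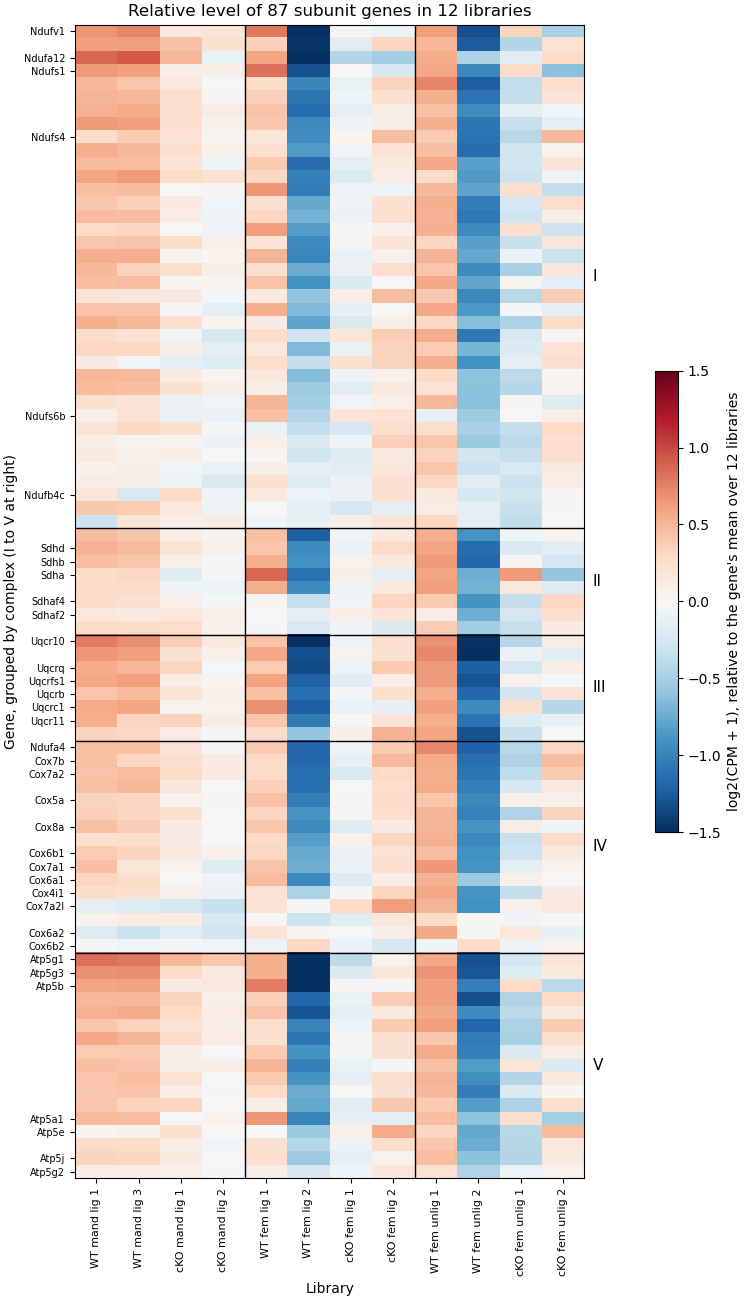
Log2(CPM + 1) of each of the 87 members relative to its own mean over the 12 libraries (colour scale, red higher and blue lower), with members in rows grouped by complex, some of them named at the left, and libraries in columns. The 2 femoral LSD1WT replicate 2 columns are low across all 5 complexes. Rows such as Cox6b2 and Cox7a2l depart from this pattern, while Atp5g2 keeps it over a narrower range.

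Promoters are shown for 6 members, because Sdha, Sdhb and Uqcrc1 are core subunits whose values are given in full below, and the 3 genes of ATP synthase subunit c, described further on, encode the same mature protein and yet varied to different degrees. The sequences are RefSeq's for GRCm38.p6, 250 bases before to 30 after the gene start, in the direction of transcription, and capitals mark a match to one of the motifs named below them. Sdha lies at chr13:74350211-74350490 (minus strand), Sdhb at chr4:140961021-140961300 (plus), Uqcrc1 at chr9:108936398-108936677 (plus), Atp5g1 at chr11:96075602-96075881 (minus), Atp5g2 at chr15:102671018-102671297 (minus) and Atp5g3 at chr2:73911297-73911576 (minus).
Sdha: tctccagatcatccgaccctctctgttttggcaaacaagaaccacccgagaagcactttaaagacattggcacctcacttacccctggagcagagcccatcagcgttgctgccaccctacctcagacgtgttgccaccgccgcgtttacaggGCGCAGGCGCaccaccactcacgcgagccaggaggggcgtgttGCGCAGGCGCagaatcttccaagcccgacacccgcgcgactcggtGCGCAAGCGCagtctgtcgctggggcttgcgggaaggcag
Sdhb: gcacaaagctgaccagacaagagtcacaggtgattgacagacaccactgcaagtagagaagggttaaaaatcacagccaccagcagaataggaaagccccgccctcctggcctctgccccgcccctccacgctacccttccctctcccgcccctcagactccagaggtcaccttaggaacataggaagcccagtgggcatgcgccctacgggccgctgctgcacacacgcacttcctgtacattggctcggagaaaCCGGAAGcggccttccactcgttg
Uqcrc1: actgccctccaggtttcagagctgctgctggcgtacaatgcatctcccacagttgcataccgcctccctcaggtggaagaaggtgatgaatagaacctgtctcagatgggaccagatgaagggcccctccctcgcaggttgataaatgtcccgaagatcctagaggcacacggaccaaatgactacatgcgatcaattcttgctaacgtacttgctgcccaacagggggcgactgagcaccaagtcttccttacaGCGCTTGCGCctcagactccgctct
Atp5g1: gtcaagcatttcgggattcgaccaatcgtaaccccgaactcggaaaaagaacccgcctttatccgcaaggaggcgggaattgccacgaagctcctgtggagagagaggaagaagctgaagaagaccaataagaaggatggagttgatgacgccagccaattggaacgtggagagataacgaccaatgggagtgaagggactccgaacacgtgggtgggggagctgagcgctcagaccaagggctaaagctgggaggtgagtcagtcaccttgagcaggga
Atp5g2: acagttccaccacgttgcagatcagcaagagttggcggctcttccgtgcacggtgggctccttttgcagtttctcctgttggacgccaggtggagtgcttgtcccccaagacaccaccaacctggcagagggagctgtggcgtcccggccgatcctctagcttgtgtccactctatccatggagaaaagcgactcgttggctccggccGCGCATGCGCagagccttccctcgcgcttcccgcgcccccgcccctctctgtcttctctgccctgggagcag
Atp5g3: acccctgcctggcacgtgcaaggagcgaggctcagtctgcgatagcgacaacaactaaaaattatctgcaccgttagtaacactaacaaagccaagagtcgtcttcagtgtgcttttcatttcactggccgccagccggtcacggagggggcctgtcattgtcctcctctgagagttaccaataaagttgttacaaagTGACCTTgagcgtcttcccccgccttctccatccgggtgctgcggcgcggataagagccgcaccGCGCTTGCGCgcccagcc

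Of the 87 members 71 had a promoter in the RefSeq table, looked up by symbol or Ensembl identifier. Motifs were searched on both strands in the 300 bases from 250 before to 50 after the start, and a gene counted where any of its promoters matched. The motif of NRF1 (nuclear respiratory factor 1), written as GCGCA, any base and GCGC, was in 19 of the 71 (26.8%), against 5.19% of all 27025 genes with a promoter there. Those genes were not chosen by expression, whereas the members had a minimum of reads. The ETS motif CCGGAAG was in 20 (28.2% against 9.93%), the YY1 motif AAGATGGC in 10 (14.1% against 3.19%), the motif of the estrogen-related receptors, AAGGTCA, in 8 (11.3% against 5.38%) and the GC box GGGCGG in 31 (43.7% against 38.2%). Sdha held 3 NRF1 motifs, at -98 to -89, -55 to -46 and -10 to -1 from the start, Uqcrc1 held 1 at 6 to 15 and another past the printed end, and Sdhb held an ETS motif at 7 to 13. Among the subunit c genes, Atp5g2 held an NRF1 motif at -42 to -33, Atp5g3 an NRF1 motif at 13 to 22 and, read on the opposite strand as TGACCTT, the estrogen-related receptor motif at -52 to -46, and none of the motifs in capitals was found in the printed window of Atp5g1. GC boxes are not in capitals, and a match to letters is a description of the window only.

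The first question the design poses is what loss of LSD1 did in the mandibular cultures of ligated mice. Of 87 members 82 were lower in LSD1cKO, and for 76 of them both LSD1cKO libraries lay below both LSD1WT libraries, where 34.8% of all genes were lower and 34.1% higher without overlap. No member was higher without overlap. Over the members the log2 fold change had a median of -0.34, against 0.00 over all genes. With a replicate block, whose numbers mark no shared animal between genotypes, the median was -0.085. Number 3 belongs to 1 LSD1WT mandibular library alone, which the block thereby takes out of the comparison. Number 2 includes the 2 femoral LSD1WT libraries with almost no osteoclast markers, so this value also depends on femoral libraries. By complex the median without the block was -0.34 in complex I, -0.36 in complex II, -0.41 in complex III, -0.26 in complex IV and -0.33 in complex V. In the same order, 33 of 38, 7 of 8, 7 of 8, 13 of 16 and 16 of 17 members were lower without overlap. In the fit of all 12 libraries (quasi-likelihood test of edgeR, Benjamini-Hochberg adjusted) no member passed an adjusted p of 0.05, and 0% of all genes did. At an unadjusted p under 0.05 there were 0 members and 4.82% of all genes. With DESeq2 0 members were called as well, but the share of all genes it called is not given here, so that count has no background.

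When the 4 mandibular libraries were fitted alone, 62 of 86 members tested fell in LSD1cKO (72.1%), against 18.6% of all genes called lower, and none rose. They were 27 members of complex I, 5 of complex II, 7 of complex III, 9 of complex IV and 14 of complex V. That fit takes its spread from 2 pairs, of which the LSD1WT pair had a biological coefficient of variation of 0.0246, against 0.0965 in the LSD1cKO mandibular pair and 0.419 in the fit of all 12 libraries, although the labels name separate mice for the LSD1WT pair. Osteoclast markers moved with the members here: all 10 were lower in LSD1cKO without overlap, and their sum was 26214 and 26091 CPM in LSD1WT against 14649.7 and 14779 CPM. Macrophage markers summed to 3317 and 3367 CPM and to 2823 and 3522 CPM, and in the fit of these 4 libraries 3 of the 8 were called higher and 2 lower in LSD1cKO (their median was 0.58 on the log2 scale). Of 3 stromal markers 2 were called lower, with sums of 40.1 and 40.8 CPM in LSD1WT against 8.45 and 3.18 CPM in LSD1cKO. The part of these markers in the result was not tested.

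In the electron input module of complex I, Ndufs1, the largest iron-sulfur subunit, was at 298 and 293 CPM in LSD1WT and 206 and 204 CPM in LSD1cKO mandibular cultures. The log2 fold change was -0.53 with a standard error (SE) of 0.68 in the fit of all libraries, and -0.52 (SE 0.05, adjusted p = 2.0e-04) with the 4 mandibular libraries alone. Ndufv1, which binds NADH and FMN, was at 194 and 204 against 136 and 139.9 CPM, and Ndufv2 at 257 and 255 against 215 and 182 CPM. The quinone-reducing core subunit Ndufs3 was lower as well, at 103 and 103 against 75.2 and 68.6 CPM. The accessory subunit Ndufa12 had the lowest fold change of complex I (-0.67, SE 0.70), with 101 and 106 CPM in LSD1WT and 78.7 and 51.8 CPM in LSD1cKO, though its 2 LSD1cKO libraries lay further apart than the 2 LSD1WT ones. The row of its pseudogene, Ndufa12-ps, held 396 and 594 reads in LSD1WT and 424 and 890 in LSD1cKO there. How reads were divided between the 2 rows is uncertain. At the other end stood Ndufb4c, a near copy of Ndufb4 with a median of 0.425 CPM, at 0.39 (SE 0.71) and with overlapping libraries.

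Sdha, the flavoprotein of complex II that oxidises succinate, was at 693 and 705 CPM in LSD1WT and 502 and 561 CPM in LSD1cKO mandibular cultures, and its iron-sulfur partner Sdhb at 418 and 407 against 321 and 301 CPM. Sdhb had the lowest fold change of the complex (-0.41, SE 0.58), and fell with the 4 libraries alone (-0.40, SE 0.06, adjusted p = 0.00128). The assembly factor Sdhaf2, which helps attach FAD to Sdha, had the highest at -0.03 and its genotypes overlapped. In complex III the Rieske protein Uqcrfs1, which passes electrons toward cytochrome c1, was lowest (-0.54, SE 0.65), with 375 and 383 CPM against 267 and 254 CPM. For the core subunit Uqcrc1 the mean was 476 ± 8.39 (SD of 2 LSD1WT libraries) against 331 ± 0.314 CPM (SD of 2 LSD1cKO libraries), and it fell with the mandibular libraries alone (-0.52, SE 0.05, adjusted p = 1.9e-04). The small subunit Uqcr11 was closest to 0 in the complex (-0.21), with 175 and 150.0 against 152 and 129 CPM and an overlap.

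Cox5a, a nuclear subunit of complex IV on its matrix side, was at 276 and 274 CPM in LSD1WT and 226 and 222 CPM in LSD1cKO mandibular cultures, and fell when these libraries were fitted alone (-0.29, SE 0.05, adjusted p = 0.00334). Its lowest and highest fold changes were those of lowly counted muscle-type isoforms, Cox7a1 (-0.46, 5.92 and 4.73 against 4.26 and 3.46 CPM) and Cox6a2 (0.16, 0.286 and 0.183 against 0.309 and 0.216 CPM). In complex V the catalytic β subunit Atp5b was at 2354 and 2366 CPM in LSD1WT against 1709.5 and 1748 CPM in LSD1cKO and the α subunit Atp5a1 at 1668 and 1646 against 1189.8 and 1240.1 CPM. Both fell with the mandibular libraries alone, Atp5b by 0.45 and Atp5a1 by 0.44 on the log2 scale. The lowest fold change in the complex was that of Atp5g3 (-0.47, 752 and 756 against 569 and 518 CPM) and the highest that of Atp5e, the ε subunit of the stalk (0.07, 139 and 143 against 160.4 and 136 CPM, overlapping).

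**Figure D3:**
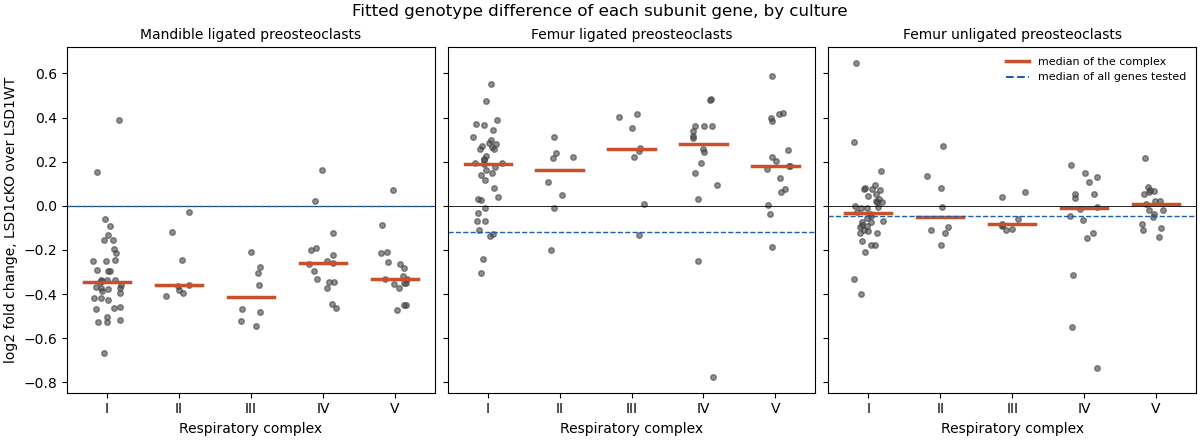
Log2 fold change of LSD1cKO against LSD1WT for each of the 87 members (points, by complex) in the 3 cultures, from the fit of all 12 libraries, with the median of each complex as a bar, 0 as a thin line and the median of all genes tested as a dashed line. The medians of the 5 complexes lie between -0.41 and -0.26 in the mandible, while the points of both femoral cultures lie on both sides of 0.

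In the ligated femur the same comparison gave 71 members higher and 16 lower in LSD1cKO, and their log2 fold changes had a median of 0.21 against -0.12 over all genes. No member passed the adjusted test, as against 0.00648% of all genes, and none had an unadjusted p under 0.05 (6.88% of all genes). Without overlap, 4 members were higher and 2 lower, where 14.8% and 19.4% of all genes were. The value rests on which LSD1WT library is read: the first replicate lay above both LSD1cKO libraries in 57 of 87 members (65.5%, against 46.7% of all genes), and the second below both in 82 (94.3%, against 42.6%). Leaving out the first gave a median of 1.06, and leaving out both femoral replicate 2 libraries gave -0.15, with 66 of 87 members lower. Atp5b was at 2657 and 495 CPM in LSD1WT and 1537 and 1534 CPM in LSD1cKO, so the 2 LSD1cKO libraries lay close together between the LSD1WT pair. Uqcrc1 had the lowest fold change of complex III (-0.13, SE 0.63), with 513 and 134 against 298 and 293 CPM, and Uqcrq the highest (0.42, 195 and 58.0 against 142 and 196 CPM). Sdha was lowest in complex II (-0.20, 1035 and 263 against 613 and 516 CPM) and Sdhaf4, an assembly factor that binds Sdha, highest (0.31). The extremes of complex I were Ndufa12 (-0.30, 83.9 and 13 against 40.4 and 38.2 CPM) and the accessory subunit Ndufs4 (0.55, 91.2 and 42.0 against 83.0 and 112 CPM). Cox7b was highest in complex IV (0.49, 254 and 92.0 against 192 and 294 CPM), and Cox6b2, the testis isoform, lowest (-0.77) from levels of 0.517 and 0.975 against 0.505 and 0.351 CPM. In complex V, Atp5a1 was lowest (-0.19, 1883 and 603 against 1104 and 1082 CPM). Atp5e was highest (0.59, SE 0.42), with 137 and 92.5 CPM in LSD1WT and 144 and 202 CPM in LSD1cKO, and it was one of the 4 that did not overlap.

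In the unligated femur, where the mice had no ligature, 36 members were higher and 51 lower in LSD1cKO, with a median of -0.02. No member was called (0% of all genes), and none had an unadjusted p under 0.05, against 4.95% of all genes. Without overlap 1 member was higher and 1 lower, with 9.82% and 8.57% of all genes as the background. The first LSD1WT replicate lay above both LSD1cKO libraries in 80 members (92%, against 30.1% of all genes) and the second below both in 79 (90.8%, against 35.7%). Without the first replicate the median was 0.96, and without both femoral replicate 2 libraries it was -0.55, with 85 of 87 members lower. Sdha was at 858 and 344 CPM in LSD1WT and 889.7 and 381 CPM in LSD1cKO, where the 2 LSD1cKO libraries differed about as widely as the LSD1WT pair. The anchor subunit Sdhd was lowest in complex II (-0.18, 464 and 139 against 261 and 273 CPM) and Sdhaf2 highest (0.27). Complex III spanned little, from -0.11 for Uqcr10 (285 and 62.5 against 131 and 191 CPM) to 0.06 for Uqcrb (222 and 66.7 against 126 and 175 CPM). In complex IV the range was -0.73 for Cox6a2 to 0.19 for Cox5a (292 and 112 against 231 and 229 CPM), and in complex V -0.14 for the stalk subunit Atp5j (232 and 110.2 against 125 and 186 CPM) to 0.22 for Atp5e (171 and 79.7 against 102 and 189.5 CPM). The extremes of complex I were near copies with few reads, Ndufb4c (-0.40) and Ndufs6b (0.65, 1.22 and 0.663 against 1.39 and 1.58 CPM), the latter being the member that was higher without overlap.

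Over the 3 cultures, with culture as a term, 28 members were higher and 59 lower in LSD1cKO, the median member at -0.05 and no member called, while 3.53% of all genes were called and 16.1% had an unadjusted p under 0.05. No member had its 6 LSD1cKO libraries all above or all below the 6 LSD1WT libraries, and 2.78% of all genes did. The smallest adjusted p among the members was 0.319, that of Ndufs8 (-0.21, SE 0.10), an iron-sulfur core subunit of complex I chosen after its values were seen. It was at 114 and 112, 86.3 and 79.2 and 93.0 and 77.9 CPM in LSD1WT and at 96.1 and 82.9, 72.8 and 77.9 and 68.2 and 84.7 CPM in LSD1cKO, and unlike most members it did not have its lowest values in the LSD1WT femoral replicate 2 libraries.

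Without both femoral LSD1WT replicate 2 libraries, 34 of 87 members fell in LSD1cKO over the 3 cultures (39.1%, against 9.75% of all genes called lower) and none rose, with a median of -0.33. They were 14 members of complex I, 4 each of complexes II, III and IV, and 8 of complex V, and 33 of the 34 were among the 62 called in the mandible alone. Since that mandible fit shares its 4 libraries with this one, the overlap is not independent. Both libraries left out are LSD1WT, and they were the lowest pair of the 12 for 72 of 87 members, against 18% of all genes. Leaving them out raises the LSD1WT level of most members, so the number of members that fell is not independent of that choice. The lowest adjusted p values were those of Ndufs3, a quinone-reducing core subunit (-0.55, SE 0.08, adjusted p = 8.7e-04), and Uqcrfs1 (-0.55, SE 0.09, adjusted p = 0.00153). Uqcrc1 fell by 0.60 (SE 0.13, adjusted p = 0.00721), Sdhb by 0.47 (SE 0.10, adjusted p = 0.00853) and Ndufa12 by 0.70 (SE 0.14, adjusted p = 0.00588) on the log2 scale. Of the core subunits, the adjusted p was 0.0144 for Ndufs1 (-0.65, SE 0.16), 0.0118 for Ndufv1 (-0.60, SE 0.14), 0.0155 for Atp5b (-0.56, SE 0.14), 0.0236 for Atp5a1 (-0.53, SE 0.15), 0.0987 for Sdha (-0.50, SE 0.20) and 0.0502 for Cox5a (-0.27, SE 0.09). In this fit each femoral LSD1WT group held 1 library, which was assumed to vary like the other groups, and no member was called within a single culture, as against 5.85% of all genes in the mandible, 9.35% in the ligated and 2.47% in the unligated femur. Of its 10 libraries, 6 came in pairs from 3 mice, which the fit treats as independent. The alternative given next estimated a negative mouse correlation, which does not discount such pairs, so its count does not answer this limit. With limma voom and the mouse as a random block, an alternative chosen after seeing the data, 40 members fell (13% of all genes called lower), at an estimated mouse correlation of -0.25, where that of the same model with all 12 libraries was 0.52. The 2 libraries were left out for their osteoclast markers, which moved with the members: all 10 osteoclast markers were also called lower in this fit and 4 of 8 macrophage and 2 of 6 B cell markers were called higher and 1 of 4 stromal markers lower, and their part in the result was not tested.

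**Figure D4:**
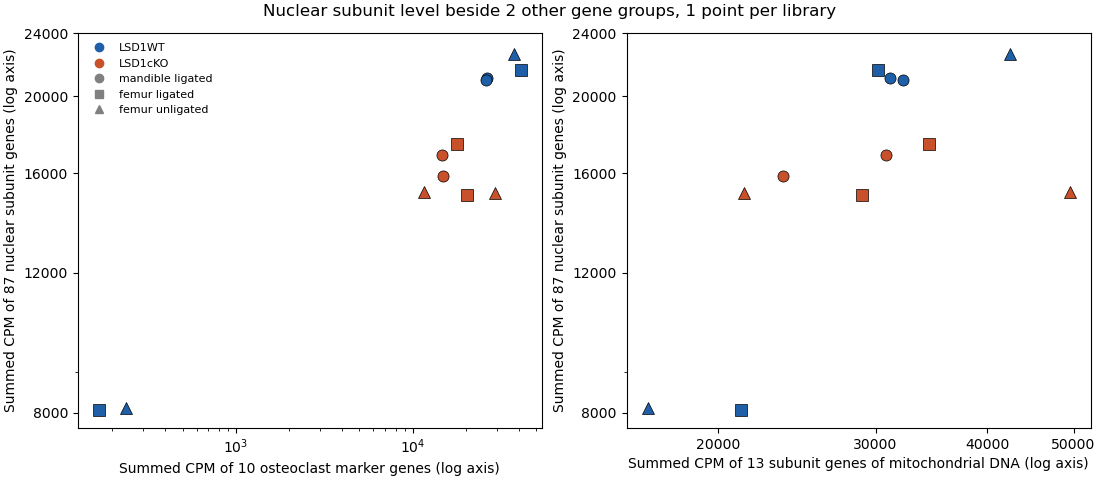
Summed CPM of the 87 members (vertical axes, log scale) against the summed CPM of 10 osteoclast markers (left panel) and of 13 subunits encoded by mitochondrial DNA (right panel, both horizontal axes on a log scale), with 1 point for each of the 12 libraries, coloured by genotype and shaped by culture. In the left panel the 2 femoral LSD1WT replicate 2 libraries lie alone at the lower left, at 168 and 238 CPM of osteoclast markers and 8062 and 8120 CPM of members, and the other 10 lie between 15021 and 22617 CPM of members, while in the right panel the libraries spread from 16663 to 49485 CPM of mitochondrially encoded subunits.

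The second question is whether the marrow site mattered in ligated mice. In LSD1WT, 83 of 87 members were higher in mandibular than in femoral cultures, 53 of them without overlap (29.2% of all genes), with a median log2 difference of 0.55, which was 0.04 without the second femoral replicate and 1.38 without the first. No member was called (0% of all genes), and 2 had an unadjusted p under 0.05, against 19.8% of all genes. They were Ndufs8 (0.45, SE 0.19, unadjusted p = 0.0424 by edgeR) and Cox6a2 (-1.38, SE 0.60, unadjusted p = 0.0481 by edgeR), both named for this and in opposite directions. In LSD1cKO, 47 were higher and 40 lower in the mandible, with a median of 0.02, 15 higher and 7 lower without overlap (35.3% and 35% of all genes), none called (0% of all genes) and none at an unadjusted p under 0.05 (15% of all genes).

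The 4 ligated LSD1cKO libraries fitted alone called 5 members between the sites, where 42.1% of all genes were called in one direction or the other. Both sites came from the same 2 mice, and with the mouse as a replicate block 5 members were called as well. The share of all genes called with the block is not given here. Without the block, Ndufa12 (0.73) and Atp5g1 (0.61) were higher in the mandible, and Cox7a2l (-0.77) and the accessory subunits Ndufa1 (-0.47) and Ndufa6 (-0.42) were lower. Cox7a2l, which helps join complexes III and IV into supercomplexes, was at 307 and 293 CPM in the mandible and 449 and 570.3 CPM in the ligated femur of LSD1cKO. The femoral pair lay above the mandibular pair. In the same fit all 8 macrophage markers, both B cell markers tested (median -1.84), 6 of 8 neutrophil markers and 4 of 10 osteoclast markers were called lower in the mandible, while both stromal markers tested (median 3.21), 2 neutrophil and 3 osteoclast markers were called higher, and their part in the result was not tested.

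The third question, the ligature itself, could be asked in the femur alone. The median log2 difference of ligated against unligated cultures was -0.08 in LSD1WT, with 15 members higher and 72 lower, and 0.15 in LSD1cKO, with 68 higher and 19 lower. Leaving out single libraries moved the first from -0.91 to 0.83, and it was -0.21 without both femoral replicate 2 libraries. No member was called in either (0% of all genes in both). Atp5a1 was at 1883 and 603 CPM in ligated and 1658 and 791 CPM in unligated LSD1WT cultures, and at 1104 and 1082 against 1440.0 and 842 CPM in LSD1cKO, so the values of the 2 cultures overlapped in LSD1WT and the unligated pair enclosed the ligated pair in LSD1cKO. How far the genotype effect in the mandible differed from that in the ligated femur had a median of -0.53 (84 of 87 below 0) and that between ligated and unligated femur 0.22 (72 above 0), and neither called any member or any other gene (0% of all genes in both). Without the 2 femoral replicate 2 libraries the first became -0.10 and the second 0.40, and leaving out single libraries moved the second from -0.70 to 1.04. These comparisons share libraries with those above.

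Several subunits exist as pairs of isoforms, and in the pairs given here 1 form made up nearly all of the reads. Cox4i1, a structural subunit of complex IV, was at 350.3 to 969 CPM over the 12 libraries, while Cox4i2, its lung and hypoxia form, had a mean of 1.33 reads. Per kilobase of annotated exons, the median level was 348 CPM for Cox6a1 and 0.708 for the muscle form Cox6a2, 371 for Cox6b1 and 0.499 for Cox6b2, and 168 for Cox7a2 and 7.95 for the muscle form Cox7a1. Cox8a was at 102 to 284 CPM and Ndufa4, a complex IV subunit despite its name, at 122 to 469 CPM, with no reads of Cox8b or Ndufa4l2. Cox6b2 stood against the general order, with its highest levels of 0.975 and 0.952 CPM in the 2 LSD1WT femoral replicate 2 libraries and 0.351 to 0.660 CPM in the other 10, all counts so low that a few reads decide them. Near copies such as Ndufb4c, Ndufs6b and Cox6c2 share sequence with Ndufb4, Ndufs6 and Cox6c, so how reads were divided within each pair is uncertain. Ndufb2 and Ndufb8, named after their values were seen, had medians of 0.969 and 3.50 CPM per kilobase, where the accessory subunit Ndufb10 had 119.8. Their annotated exons add up to 5628 and 3146 bases, against 1217 for Ndufb10, which can exceed the length of the transcript in use. Ndufb2 and Ndufb8 had means of 142 and 278.5 reads. The part of length and of read assignment in these low values was not tested.

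Subunit c, which forms the rotating ring of the ATP synthase, is encoded by Atp5g1, Atp5g2 and Atp5g3, whose promoters are printed above. Atp5g3 was at 752 and 756, 674 and 146 and 747 and 191 CPM in the LSD1WT cultures of the mandible, ligated and unligated femur, and at 569 and 518, 405 and 525 and 409.9 and 516 CPM in LSD1cKO. Atp5g1 was at 239 and 233, 195 and 35.0 and 199.8 and 53.7 CPM in LSD1WT and at 191 and 179, 103 and 140.1 and 112 and 155 CPM in LSD1cKO. Its highest library exceeded its lowest 6.84 times, and that of Atp5g3 5.18 times. Atp5g2 was at 147 and 147, 146 and 115 and 158 and 99.6 CPM in LSD1WT and at 143 and 134, 131 and 154 and 129 and 141 CPM in LSD1cKO, a ratio of 1.59. The share of Atp5g2 in the reads of the 3 genes was 38.8% and 28.9% in the 2 femoral LSD1WT libraries with almost no osteoclast markers and 12.9% to 20.5% in the other 10. The inhibitor of the ATP synthase, Atpif1, which is not a member, was at 176 and 177, 146 and 141 and 184 and 137 CPM in LSD1WT and at 249 and 212, 193 and 254 and 160.2 and 307 CPM in LSD1cKO. Its log2 fold change over the cultures was 0.52 (SE 0.16, edgeR adjusted p = 0.132), 0.48 (SE 0.18, adjusted p = 0.0727) without the 2 libraries and 0.39 (SE 0.08, adjusted p = 0.00714) in the mandible alone, so it rose in the last of these fits, in which most members fell.

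**Figure D5:**
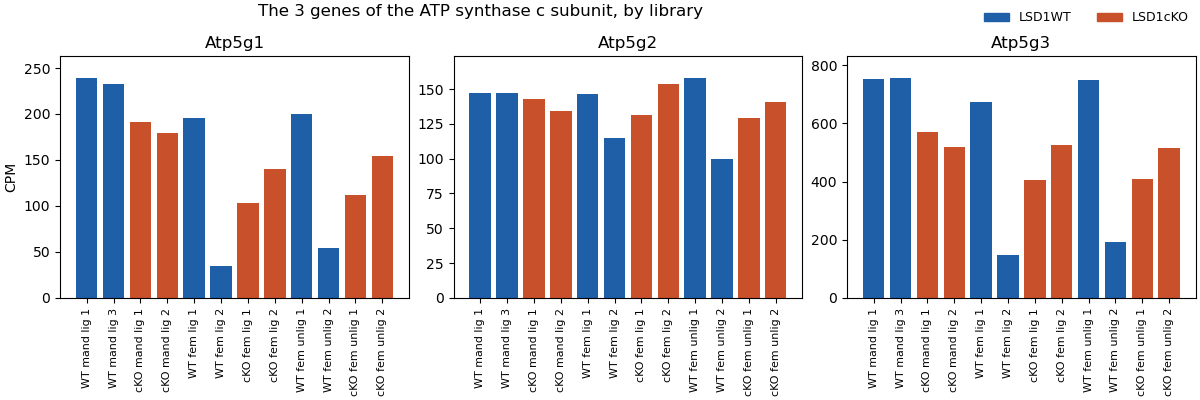
CPM of Atp5g1, Atp5g2 and Atp5g3 (1 panel each, vertical axes linear from 0 and scaled separately) in the 12 libraries, grouped by culture and genotype, with 1 bar for each library. Atp5g2 stays between 99.6 and 158 CPM, while Atp5g1 reaches down to 35.0 and Atp5g3 to 146 CPM in the second LSD1WT replicate of the ligated femur.

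The rest of the pathway was read through gene lists. The 13 subunits encoded by mitochondrial DNA summed to 31128 and 32226 CPM in LSD1WT and 30816 and 23653 CPM in LSD1cKO mandibular cultures. They summed to 30153 and 21199 against 28995 and 34475 CPM in the ligated femur and 42477 and 16663 against 21359 and 49485 CPM in the unligated femur. Their sum was 1.40 to 3.27 times that of the 87 nuclear members, so the 2 genomes' transcripts did not keep a fixed ratio. These transcripts were read from polyA-selected RNA, and parts of mitochondrial DNA have near copies in the nucleus, so single genes are uncertain. Over the cultures 11 of 13 were higher and 2 lower in LSD1cKO (median 0.13), none called, and without the 2 LSD1WT femoral replicate 2 libraries 9 of 13 were lower (median -0.18), again none called. Of 3 genes outside the symbol pattern, Ndufab1 (acyl carrier protein), Cyc1 (cytochrome c1) and Cycs (cytochrome c), all were lowest in the 2 LSD1WT femoral replicate 2 libraries.

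The 13 citric acid cycle enzymes, which feed NADH and succinate to complexes I and II, summed to 5492 and 5496 CPM in LSD1WT and 3794 and 3869 CPM in LSD1cKO mandibular cultures, 5938 and 1403 against 3276 and 3179 CPM in the ligated femur, and 5179 and 1693 against 4278 and 2581 CPM in the unligated femur. All 13 were lower in the mandible of LSD1cKO without overlap, against 34.8% of all genes (median -0.47), as were 63 of 77 mitochondrial ribosomal proteins (median -0.25) and 31 of 42 assembly factors of the complexes (median -0.27), none of them called in the fit of all libraries. The 2 LSD1WT femoral replicate 2 libraries were lowest for 10 of 13 citric acid cycle enzymes, 53 of 77 mitochondrial ribosomal proteins, 22 of 42 assembly factors and 6 of 13 mitochondrially encoded subunits, but for 17 of 84 cytosolic ribosomal proteins and 0 of 8 macrophage markers, with 18% of all genes as the background. Without these 2 libraries, 11 of 13 citric acid cycle enzymes, 30 of 77 mitochondrial ribosomal proteins, 15 of 42 assembly factors, 3 of 3 of Ndufab1, Cyc1 and Cycs, 4 of 14 regulators of mitochondrial biogenesis, 0 of 13 mitochondrially encoded subunits and 0 of 84 cytosolic ribosomal proteins fell in LSD1cKO over the cultures, against 9.75% of all genes. Ppargc1b was at 103 and 104, 97.7 and 1.49 and 85.0 and 3.27 CPM in the LSD1WT cultures of the mandible, ligated and unligated femur and at 65.1 and 58.0, 54.9 and 44.1 and 69.6 and 31.3 CPM in LSD1cKO and was likewise lowest in the 2 LSD1WT femoral replicate 2 libraries. Its relative Ppargc1a did not exceed 0.207 CPM in any library.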

How the data were processed

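Polyadenylated RNA of 12 cultures was sequenced. Per the labels and the submitters' processing notes, the authors used FastQC, HISAT2 2.1.0, featureCounts and edgeR with GRCm39, and deposited raw read counts for each gene, with gene names and lengths in the table. The read strand, if used in counting, is not given in the sources used here. The values used here are these counts. GRCm38.p6 served for the promoter sequences, and a GENCODE annotation of GRCm38 for the lengths behind the values per kilobase. Each such length is the union of all annotated exons of a gene, and not the length deposited with the counts.

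Counts were scaled by TMM, filtered with filterByExpr (15425 of 57010 genes kept) and tested with edgeR 4.0.16 (R 4.3.3) by the quasi-likelihood test, with all 12 libraries and 1 coefficient for each of 6 conditions, or with culture and genotype as terms for the comparison over cultures. Genes were called at a Benjamini-Hochberg adjusted p under 0.05 over all genes tested. CPM use TMM-scaled library sizes, and log2 CPM a prior count of 2. The labels name a separate mouse for each library of a group. Alternatives were DESeq2 1.42.0, limma 3.58.1 (voom, mouse as random block), other scalings and filters, each library left out, and fits of some libraries alone. Scripts were tested on simulated data. Depth was 21375805 to 32526751 reads, and floors of 3 reads cover counting error only.

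By the labels, replicate numbers mark no shared animal between the 2 genotypes. Over all genes, replicate 1 minus replicate 2 of LSD1WT and of LSD1cKO correlated at -0.02 in the ligated and 0.22 in the unligated femur. The 2 LSD1cKO mice with both a mandibular and a femoral library are the same animals, and their differences correlated at 0.03. Within LSD1WT femur, replicate 1 minus replicate 2 of the ligated correlated with that of the unligated mice, which are different animals, at 0.78. Libraries of the same animals thus correlated less than those of different animals, so these correlations cannot show whether libraries were paired.

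The members and gene lists were chosen with earlier results of these data known. Genes named are those called (at most 10 for each comparison), the highest and lowest fold change of each complex in each culture, isoform sets with Atpif1, 9 core subunits (Ndufs1, Ndufv1, Sdha, Sdhb, Uqcrc1, Uqcrfs1, Cox5a, Atp5a1 and Atp5b), and members without overlap over 6 and 6 libraries, of which there were none. Ndufv2, Ndufs3, Ndufs8, Ndufb2, Ndufb8 and Ndufb10 were added after their values were seen.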

Additional observations from a re-analysis of the deposited data

Results flagged for a closer look

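Cox5a had 1 LSD1cKO library apart from the other 5: the second LSD1cKO replicate of the ligated femur was at 267 CPM, and the others were at 216 to 231 CPM. It was the 1 such value in 56 checks of named genes and sums in each genotype, and chance gives such a value in about 1 in 20 groups.

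Cox7a2l had opposite genotype directions in the 2 ligated cultures with no overlap in either, at 332 and 322 CPM (LSD1WT) and 307 and 293 CPM (LSD1cKO) in the mandible and 429 and 363 and 449 and 570.3 CPM in the femur. The log2 fold change was -0.12 in the mandible and 0.36 in the femur, and the difference of -0.49 was not called (edgeR interaction, adjusted p = 1). It was the 1 member of 87 with this pattern, and 736 of 15425 genes had it.

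Reads were also assigned to rows with pseudogene symbols, which belong to no comparison. Their mean counts over the 12 libraries were 458.5 for Ndufa12-ps and 441.6 for Cox5b-ps, then 78.3 for Atp5pb-ps, 24.5 for Atp5k-ps2, 24.1 for Cox7c-ps1, 22.3 for Atp5l2-ps, 14.0 for Atp5l-ps1 and 12.9 for Ndufs5-ps. Ndufa12, the member with the widest range (8.10 times from lowest to highest library), had a mean of 1701 reads beside the 458.5 of its pseudogene row. That row ran from 121 to 890 reads over the libraries, with 890 and 824 in the second LSD1cKO replicate of the mandible and of the ligated femur. How reads were divided between near-identical copies is uncertain, and each fold change of Ndufa12 given above carries that limit.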

How the results depend on the processing

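Of 242 alternative values of the number of members called, 235 stayed within 1.5 times the value reported, and of 232 alternative medians of the members' log2 fold changes 219 moved by less than the spread between replicates. With DESeq2, RLE or upper-quartile scaling, other filters on low counts, the summed LSD1WT mandibular pair, or LSD1WT mandible replicate 3 taken as a ligated femoral library, no count or median moved further than that. No member was called in any comparison as reported, so a count within 1.5 times was again none. Between replicates the median member differed by 1.30 and 1.42 on the log2 scale in the ligated and unligated LSD1WT femoral pairs. It differed by 0.035 to 0.48 in the other pairs. A median can change sign within a spread as wide as the former, so these tallies do not show that the results are robust. The cause of the changes below was not tested.

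Members called went from 0 to 34 (genotype over the cultures; 40 with limma voom and the mouse as a random block, added after seeing the data), and from 0 to 1 (mandible against femur in LSD1cKO, with 21.7% of all genes called), without both femoral LSD1WT replicate 2 libraries, from 0 to 62 in the mandible with its 4 libraries alone, and from 0 to 5 for mandible against femur in LSD1cKO with those 4 libraries alone. The last was also 5 with a replicate block by mouse, the numbers there marking the same animals, and the share of all genes called with that block is not given here. Leaving out each library in turn gave 0 to 4 members called for mandible against femur in LSD1WT, with 4 without LSD1WT femur ligated replicate 1 (23.2% of all genes called), and 0 in the other 9 comparisons.

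Leaving out each library in turn gave medians from -0.38 to -0.23 for the genotype in the mandible (-0.23 without LSD1cKO replicate 2), -0.24 to 1.06 in the ligated femur, -0.55 to 0.96 in the unligated femur and -0.20 to 0.23 over the cultures, so the direction in the femur and over the cultures depends on single LSD1WT femoral libraries. For mandible against femur it gave 0.044 to 1.38 in LSD1WT and -0.13 to 0.15 in LSD1cKO, for the ligature -0.91 to 0.83 in LSD1WT and -0.014 to 0.40 in LSD1cKO, and for the differences of the genotype effect -1.36 to -0.048 (mandible minus ligated femur) and -0.70 to 1.04 (ligated minus unligated femur). The ends came from LSD1WT femur ligated replicate 1 (1.06, 1.38, -1.36, 1.04, -0.91) or replicate 2 (-0.24, 0.044, -0.048, -0.20), from LSD1WT femur unligated replicate 1 (0.96, 0.83, -0.70, 0.23) or replicate 2 (-0.55), and from LSD1cKO femur unligated replicate 2 (0.40). Without both femoral replicate 2 libraries the difference between mandible and ligated femur was -0.10 (reported as -0.53). The median in the mandible, reported as -0.34, was -0.085 with a replicate block, and -0.47 with limma voom and the mouse as a random block, whose estimated mouse correlation was -0.39. The replicate block, whose numbers mark no shared animal between genotypes, changed no call, but turned the median over the cultures from -0.05 to 0.13.

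Lowly counted isoforms (Cox6a2, Cox6b2, Cox6c2, Ndufb4c) are limited by depth, with medians of 0.425 to 0.553 CPM.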
